A study of Mus musculus with 2 samples.

Results

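The cells described here are the white adipose precursors that carry the label Early Preads W4 (wAPC 4) in the barcode table of the study, a small cluster named for high Tgfb1. The copy of the table used here holds its first 1999 white precursor cells, and all 62 with this label were used, 3.10% of those cells (exact 95% Clopper-Pearson interval 2.39 to 3.96%). That share and its interval rest on the order of the table. They were set against the 1937 labelled white precursor cells of the 6 other clusters, which are wAPC 1, wAPC 2, wAPC 3, the wCAPs (committed adipocyte precursors), the wFAPLs (fibro-adipogenic progenitor-like cells) and 15 differentiating wFAPLs. The series holds 1 library of subcutaneous white and 1 library of interscapular brown adipose precursors, each from pooled newborn (P0) C57/BL6J mice of both sexes (the age is that of the labels, while the study's methods name P1). The cells were untreated stromal cells, freed with collagenase, plated and lifted once confluent after 4 days. The white library holds 5261 cells, and both libraries together hold 12270. Since a depot is 1 library of pooled pups, no value below has a replicate and no test between groups could be made. Intervals cover counting error only. The clusters were also drawn from the same counts, so each difference between wAPC 4 and the rest describes what sets the cluster apart and is no independent evidence for it.

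Adipose precursors are fibroblast-like cells that keep a pool of undifferentiated progenitors and give rise to adipocytes. Notch signalling passes between neighbouring cells: a ligand such as Jagged 1 on one cell binds a Notch receptor on the next, the receptor is cleaved, and its inner part joins the DNA-binding protein RBPJ to switch on repressors of the HES and HEY families. TGF-beta is a secreted, initially latent growth factor that signals through SMAD proteins, promotes matrix production and is known to hold back adipocyte differentiation.

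wAPC 4 cells were precursors of ordinary depth. They held 15887 to 52040 UMIs (unique molecular identifiers, each counted as 1 captured RNA molecule) with a median of 25928, and a median of 5801 genes, against medians of 27246 UMIs and 5884 genes in the other labelled cells. The median mitochondrial share was 2.97%, against 3.01%. All of the 5 precursor markers were present. Dlk1, which marks preadipocytes, stood at 438 CPM (UMIs of a gene over all UMIs of the summed cells, scaled to counts per 1000000) against 481 CPM in the rest. Pdgfra stood at 82.5 CPM against 116 CPM. The markers of glial, myeloid, endothelial and myogenic cells and of adipocytes were low. The lists of mural and smooth muscle genes, which precursors also express, summed to 821 and 8234 CPM and are described further on. No UMI was found of Ptprc, Sox10, Kdr, Cdh5, Adipoq or Plin1 in the 62 cells, which allows a level of up to 1.77 CPM for each. The 9 myeloid markers summed to 12.4 CPM against 12.9 CPM in the rest, with Csf1r the most abundant at 6.48 CPM (interval 3.24 to 11.6 CPM) against 2.80 CPM. The 8 glial markers summed to 30.6 CPM against 23.4 CPM, nearly all of it S100b at 27.7 CPM. No barcode of a wAPC 4 cell occurs in the brown library, although the libraries share 9 barcodes. Of the 58 wAPC 4 cells with a sex call from their transcripts, 48 were female (82.8%, interval 70.6 to 91.4%), against 79.4% of the other cells, so neither sex alone made up the cluster.

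Tgfb1, which encodes the ligand TGF-beta 1 (Ensembl ENSMUSG00000002603, GRCm38 chromosome 7, 25687002 to 25705077, plus strand), is the gene the cluster was named for, so its level in these cells is a description. Over single cells its level ran from 0 to 535 CPM with a median of 118 CPM in wAPC 4, and from 0 to 300.3 CPM with a median of 0 in the others. Of the wAPC 4 cells, 59 of 62 held a Tgfb1 UMI, and 3.36% of the other cells lay above the wAPC 4 median. The cells of both groups therefore overlapped. Summed, Tgfb1 was at 149.7 CPM (exact Poisson interval 131.8 to 169.3 CPM, 254 UMIs) against 28.4 CPM, a log2 ratio of 2.40 (interval 2.20 to 2.59). The 6 other white clusters lay between 14.7 CPM in the differentiating wFAPLs and 30.9 CPM in wAPC 3, with wAPC 1 at 30.8, wAPC 2 at 27.7, wFAPLs at 27.2 and wCAPs at 26.9 CPM. From wAPC 3 to the wFAPLs neighbours in that order had overlapping counting intervals. No single cell carried the sum: the cell with the most Tgfb1 UMIs held 5.91% of them, and 13 cells were needed to reach 50% of them. Thinned to 10000 UMIs per cell, 69.4% of wAPC 4 cells held a Tgfb1 UMI (interval 56.3 to 80.4%) against 23.1% of the others, and the unthinned shares were 95.2% and 47.6%. Outside the precursors, Tgfb1 was at 273.4 CPM in the 14 cells labelled myeloid, which all held a UMI at a median depth of 25125 UMIs, and at 33.8 CPM in the 20 glial cells, of which 50.0% held one at a median depth of 22607 UMIs. The brown clusters lay between 24.3 CPM in bCAPs and 49.4 CPM in bAPC 2, so none of the 7 reached the level of wAPC 4.

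**Figure D1:**
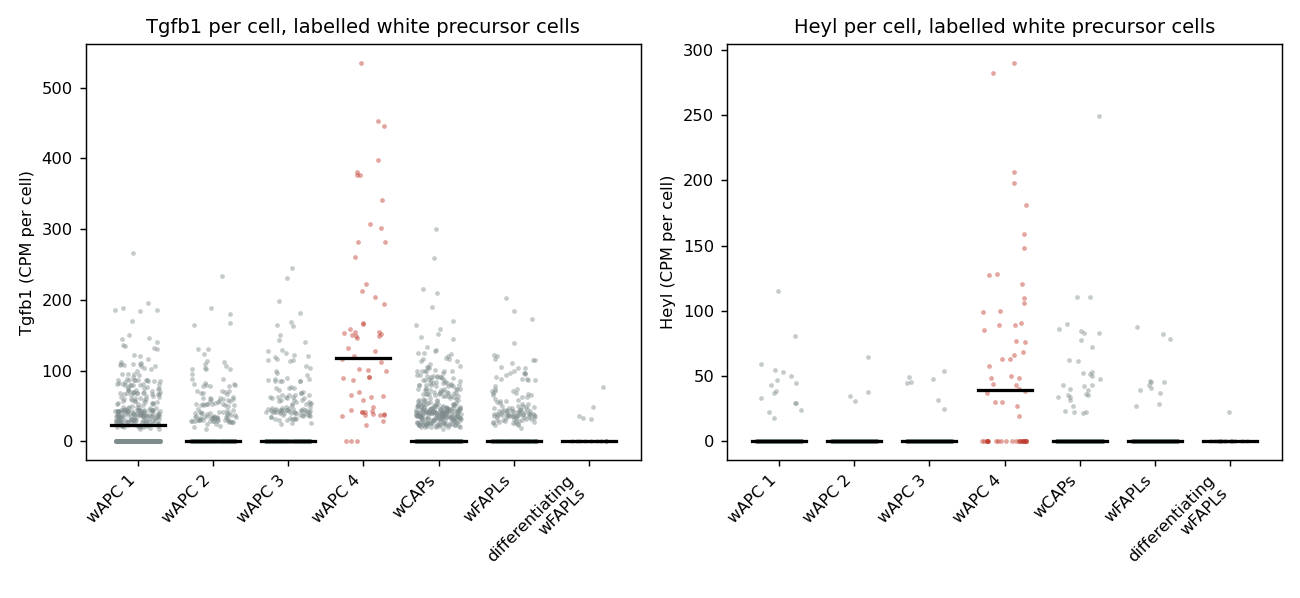
Tgfb1 (left) and Heyl (right) in single labelled white precursor cells, in CPM per cell on linear axes. Each point is a cell, jittered sideways, wAPC 4 is in red, and the black bar is the cluster median, which is 118 CPM for Tgfb1 and 39.5 CPM for Heyl in wAPC 4 and 0 for Heyl in every other cluster.

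Across the 9228 genes at 10 CPM or more in either group, 194 were at least 2-fold higher in wAPC 4 (2.1%) and 275 at least 2-fold lower (2.98%), and the median log2 ratio was 0.01. Of these genes 8842 reached 10 CPM in the other cells. The remaining genes entered through wAPC 4 alone, so they had to be higher there. Both shares belong to this minimum. Some list counts below set the minimum over all labelled cells together, and the share over all genes was not computed for that. wAPC 4 held the highest level of all 7 white clusters for 174 of the 194 and the lowest for 181 of the 275. Against single clusters, the share of genes at least 2-fold apart was 5.60% against wAPC 3, 5.94% against wAPC 1, 6.06% against wCAPs, 6.76% against wAPC 2 and 8.40% against wFAPLs, and 30.2% against the differentiating wFAPLs. Against the brown cluster bAPC 1 it was 5.23%. Each pair was set over its own genes at 10 CPM or more, and sparse clusters add counting error to these shares.

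**Figure D2:**
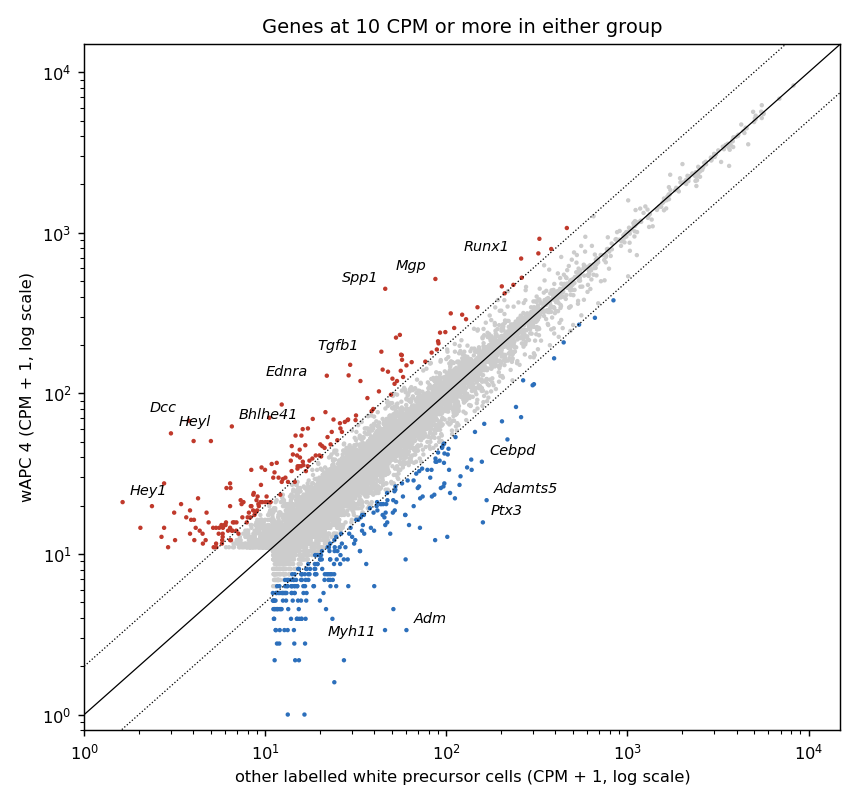
Level of each of the 9228 genes in wAPC 4 (vertical) against the other labelled white precursor cells (horizontal), in CPM + 1 on log axes. The solid line marks equal levels and the dotted lines 2-fold, and the 194 genes at or past 2-fold higher are red and the 275 at or past 2-fold lower are blue, with Heyl, Hey1 and Dcc farthest to the upper left and Adm and Myh11 at the lower edge.

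The largest log2 ratios belonged to Hey1 and Heyl, targets of the Notch pathway, which both reached 10 CPM through wAPC 4 alone. Heyl (chromosome 4, 123233556 to 123249875), a repressor that Notch switches on, was at 55.4 CPM (44.8 to 67.8 CPM) in wAPC 4 and 2.01 CPM in the rest, a log2 ratio of 4.78 (4.37 to 5.19). Its single-cell level ran from 0 through a median of 39.5 to 290.04 CPM in wAPC 4, and 37 of 62 cells held a UMI against 74 of 1937. The next white cluster, the wCAPs, stood at 2.89 CPM. Hey1 (chromosome 3, 8663359 to 8667256), of the same family, was at 20.03 CPM (13.9 to 28.0 CPM, 34 UMIs) against 0.629 CPM, a log2 ratio of 4.99 (4.27 to 5.72), with a UMI in 19 of 62 cells and 30 of 1937. No myeloid cell held a UMI of either gene, which in 14 cells allows up to 21.4% of cells with a UMI (3 counts of the total). Of the glial cells 35.0% held a Heyl UMI and none a Hey1 UMI, which in 20 cells allows up to 15.0%. The third measured target, Hes1, was at 95.5 CPM against 49.6 CPM, a log2 ratio of 0.94 (0.71 to 1.17), just short of 2-fold. Hes1 had a similar level in the differentiating wFAPLs, at 86.0 CPM (61.7 to 116.6 CPM). Hey2 was at 2.95 CPM, below the 10 CPM minimum, and Hes5 and Nrarp had no UMI in wAPC 4.

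Jag1, Notch1 and Notch3 were also at least 2-fold higher. Jag1, the gene of Jagged 1 (chromosome 2, 137081456 to 137116644), was at 118 CPM against 32.5 CPM, a log2 ratio of 1.87 (1.65 to 2.08). Its single-cell values ran from 0 through a median of 90.8 to 377 CPM in wAPC 4 and up to 383 CPM in the rest, so the groups overlapped over the whole range. It was the only one of 5 Notch ligands at 10 CPM or more, since Dll4 and Jag2 had no UMI and Dll1 had 1 in the 62 cells. Notch1 was at 75.4 CPM against 20.5 CPM, a log2 ratio of 1.88 (1.61 to 2.15). Notch3, the receptor of mural cells, was at 46.0 CPM against 19.6 CPM, a log2 ratio of 1.23 (0.88 to 1.56), but the differentiating wFAPLs held more of it, at 180 CPM, and with the 6 other clusters weighted equally its log2 ratio was 0.01. Notch2 was the exception among the 3 measured receptors, at 35.4 CPM (27.0 to 45.5 CPM) against 44.6 CPM. The list of Notch processing and co-factors, which also holds Dlk1, had 17 measured genes. Of these 1 was at least 2-fold higher (2.1% of all genes were) and none lower. Rbpj itself was at 105 CPM against 103 CPM, and the protease gene Adam10 had a log2 ratio of -0.03. The list median was -0.01 beside 0.01 for all genes.

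RBPJ prefers the letters GTGGGAA, so the promoters of the genes named here were searched for them on both strands. The windows hold 250 bases before to 50 bases after each start listed by RefSeq on GRCm38.p6. Of all 27025 genes with such a window, 7.25% hold the letters. Heyl, Hey1 and Hes1 have no entry in the set of windows used here, so they could not be searched. Of the 25 named genes with the highest ratios, 13 have a window and 2 of these hold them, Slc20a1 and Arhgef26. The windows of Jag1, Notch1, Notch3 and Tgfb1 do not. Slc20a1, a phosphate transporter, is shown because its pattern over clusters was also among the 5 most like that of Tgfb1, and Tgfb1 as the gene that names the cluster. Each is the 250 bases before the listed start, with the motif in capitals. That of Tgfb1 is chr7:25686752-25687001 and that of Slc20a1, which lies inside the gene before the second of its 2 listed starts, is chr2:129206846-129207095, both on the plus strand.
Tgfb1: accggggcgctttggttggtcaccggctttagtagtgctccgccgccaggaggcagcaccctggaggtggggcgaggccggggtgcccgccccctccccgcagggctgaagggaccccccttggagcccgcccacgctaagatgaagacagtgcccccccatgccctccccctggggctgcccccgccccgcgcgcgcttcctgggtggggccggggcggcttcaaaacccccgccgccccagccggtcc
Slc20a1: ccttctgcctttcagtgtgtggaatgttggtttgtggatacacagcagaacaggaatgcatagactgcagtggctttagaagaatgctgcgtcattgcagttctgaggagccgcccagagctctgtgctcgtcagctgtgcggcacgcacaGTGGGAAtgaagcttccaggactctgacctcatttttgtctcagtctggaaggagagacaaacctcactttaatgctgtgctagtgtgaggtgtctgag
A match in these letters is a description and no sign of binding. At the level of RNA, Slc20a1 was at 128 CPM in wAPC 4 against 27.8 CPM, a log2 ratio of 2.21 (1.99 to 2.41).

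The TGF-beta genes were uneven within each role. Of 9 measured ligand and latency genes 3, Tgfb1 among them, were at least 2-fold higher and none at least 2-fold lower. Over all genes these shares were 2.1% and 2.98%. With the 6 other clusters weighted equally only Tgfb1 was higher, and Tgfb2 and Thbs1 were lower. Tgfb3, a second ligand, was at 137 CPM (120 to 156 CPM) against 54.9 CPM, although the differentiating wFAPLs stood far higher at 721 CPM and the equal-weight log2 ratio was -0.21. Lrrc32, which holds latent TGF-beta at the cell surface, was at 114 CPM against 50.7 CPM, a log2 ratio of 1.17 (0.95 to 1.38), or 0.60 with equal weights. Tgfb2 was at 32.4 CPM against 36.5 CPM, and the latent binding proteins Ltbp1, Ltbp2 and Ltbp3 had log2 ratios between -0.12 and 0.08. Thbs1, thrombospondin 1, which can release active TGF-beta, was at 363 CPM against 688 CPM. Among 14 receptor and Smad genes, the type I receptor Tgfbr1 stood at 148 CPM against 59.2 CPM and the signal carrier Smad3 at 136 CPM against 46.6 CPM. Their log2 ratios were 1.33 (1.14 to 1.51) and 1.54 (1.34 to 1.74), and no other member of that list was past 2-fold. Smad3 was higher in wAPC 4 than in each of the other 13 white and brown clusters, the next being wAPC 1 at 53.4 CPM. The feedback inhibitors Smad6 and Smad7 were at 58.3 against 73.4 CPM and at 66.0 against 75.4 CPM.

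The response genes of TGF-beta did not go together. Of 10 on the list, Cthrc1 and Tnc were at least 2-fold higher (2.1% of all genes were) and Ccn2 at least 2-fold lower (2.98%). The list median was 0.54 beside 0.01 for all genes. Among G1 cells 1 of the 10 was at least 2-fold higher. In the 29 wAPC 4 cells given another label when held out (described further on) 0 were. Tnc, tenascin C, was at 419 CPM against 209 CPM. Ccn2, connective tissue growth factor, was at 32.4 CPM (24.4 to 42.2 CPM) against 137 CPM, a log2 ratio of -2.08 (-2.49 to -1.70). In Ccn2 the cluster lay beside wAPC 3 at 27.1 CPM, while wAPC 1 stood at 305 CPM. Ccn2 is a target of the mechanical sensors YAP and TAZ too. Of the 11 measured genes on that list 3 were at least 2-fold lower (2.98% of all genes were) and none higher. The other YAP and TAZ genes past 2-fold were Amotl2, at 36.5 CPM against 87.2 CPM, and Crim1, at 25.3 CPM against 95.3 CPM.

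**Figure D3:**
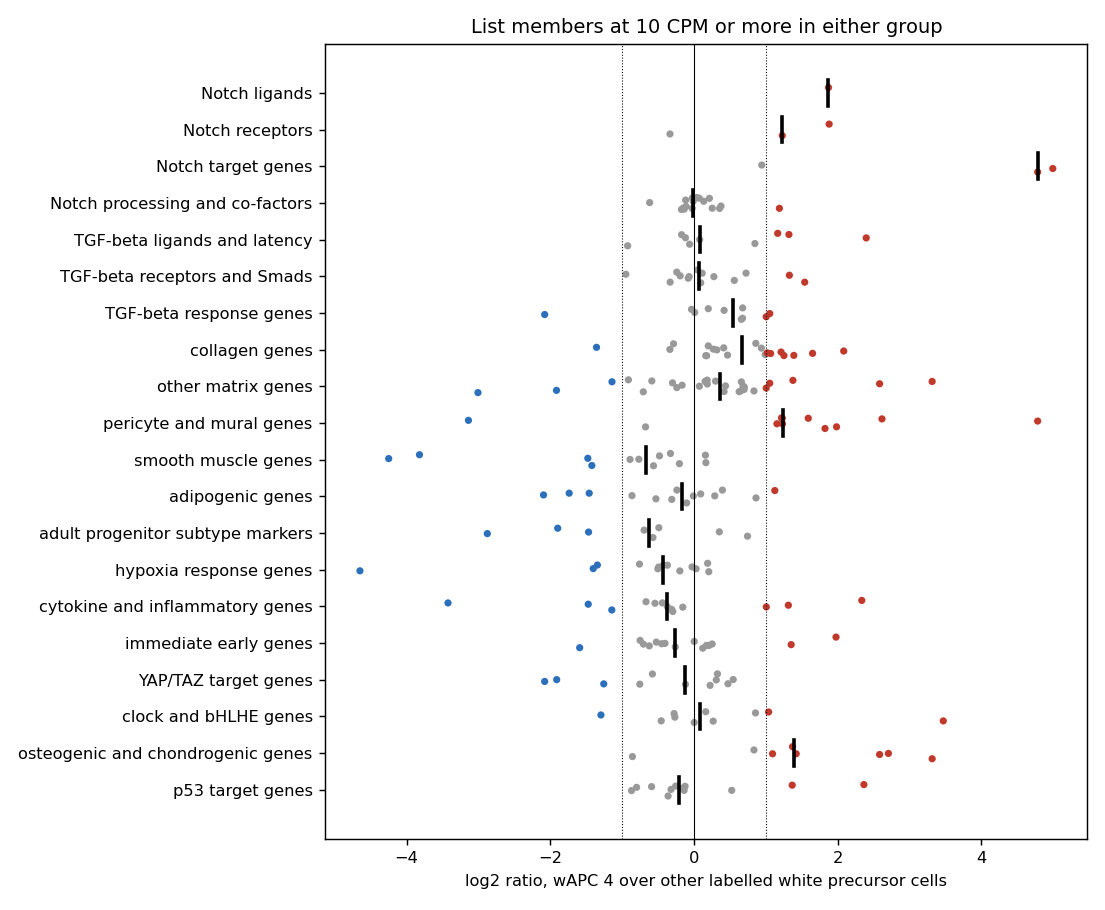
Log2 ratio of wAPC 4 over the other labelled white precursor cells for each list member at 10 CPM or more in either group. Each point is a gene, red at or past 2-fold higher and blue at or past 2-fold lower, the black bar is the list median, and the dotted lines mark 2-fold, with members that reached 10 CPM through wAPC 4 alone, such as Heyl and Hey1, included, so that the medians of short lists rest on which members were measured.

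More collagen genes were at least 2-fold higher than lower, while the other matrix genes were more evenly split. Of 20 measured collagen genes 7 were at least 2-fold higher (2.1% of all genes were) and 1 at least 2-fold lower, with a median log2 ratio of 0.66. With the minimum set over all labelled cells together 6 of 19 were higher and the median was 0.47, and it was 0.32 among G1 cells and 0.38 with equal weights. The fibril-forming Col1a1 and Col1a2, the most abundant, differed little, with log2 ratios of 0.20 and 0.18. Col15a1, of basement membrane zones, was at 230 CPM (208 to 254 CPM) against 54.3 CPM. Col5a3 was at 173 CPM against 55.2 CPM, and Col6a3 at 744 CPM against 321 CPM. Col4a1 was at 792 CPM against 378 CPM and its partner Col4a2 at 473 CPM against 233 CPM, but with equal weights neither was 2-fold higher. Col6a3 is the most even of these over cells: every one of the 62 held UMIs of it, and its median per cell was 699.7 CPM against 273 CPM. Col4a5, also of basement membrane, went the other way at 13.0 CPM against 33.2 CPM. Among 28 other matrix genes 5 were at least 2-fold higher and 3 at least 2-fold lower (2.98% of all genes were). Among G1 cells 4 were higher and 4 lower. The 5 were Fap, Spp1, Mgp, Cthrc1 and Tnc, and all of these but Fap are also counted on another list. Fap, a protease of activated fibroblasts, was at 92.5 CPM against 35.6 CPM. The 3 lower were the proteases Adamts5 and Adamts1 and the microfibril gene Fbn2, which was at 379 CPM against 836 CPM.

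Of 15 genes known from bone, cartilage and mineral handling 8 were measured. Of these 6 were at least 2-fold higher (2.1% of all genes were) and none lower (2.98%). Enpp1 reached 10 CPM through wAPC 4 alone, and among the 7 genes at 10 CPM or more over all labelled cells 5 were higher. Spp1, which encodes osteopontin (chromosome 5, 104435118 to 104441050), was at 447 CPM against 44.9 CPM, a log2 ratio of 3.31 (3.20 to 3.43). Mgp, matrix Gla protein, an inhibitor of calcification, was at 515 CPM against 85.9 CPM, a log2 ratio of 2.58 (2.48 to 2.69). Both were uneven over cells. Spp1 ran from 0 through a median of 77.7 to 7157 CPM, the top cell held 29.5% of its UMIs, and 4 cells held 50% of them. Mgp ran from 0 through 133 to 3353 CPM, and 6 cells held 50% of its UMIs. Without the cell richest in each, the log2 ratios were 2.84 for Spp1 and 2.35 for Mgp. The myeloid cells also held much Spp1, at 433 CPM, and their part in the wAPC 4 level was not tested. The myeloid markers summed to 12.4 CPM in wAPC 4. Among them Csf1r was higher than in the rest, and Ptprc, Adgre1, Tyrobp and C1qa had no UMI. Runx1, a transcription factor, was far more even, with a UMI in 59 of 62 cells and 691 CPM against 258 CPM. Runx2, which directs bone formation, was at 187 CPM against 87.5 CPM. Enpp1 and Ank, which supply extracellular pyrophosphate, were at 21.2 against 3.25 CPM and at 64.2 against 24.8 CPM. Among other genes on this list, Sp7, Bglap, Ibsp, Acan and Col2a1 had no UMI in wAPC 4, and Alpl had 3.

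The list of pericyte and other mural genes was mixed. Of 11 measured on it, of 18, 9 were at least 2-fold higher and 1 at least 2-fold lower, and 2 of the 9, Heyl and Notch3, were counted above. With the minimum set over all labelled cells together 7 of 9 were higher, where 2.1% of all genes were by the minimum in either group. Pdgfrb was at 343 CPM (316 to 372 CPM) against 147 CPM, with a UMI in 61 of 62 cells. Ednra, the endothelin A receptor, was at 128 CPM against 20.9 CPM, a log2 ratio of 2.62 (2.40 to 2.83), from 0 through a median of 87.1 to 738 CPM per cell. Foxs1, a forkhead factor, was at 68.4 CPM against 17.3 CPM, and Cspg4, the NG2 proteoglycan, at 46.0 CPM against 13.0 CPM. Gucy1a1 and Gucy1b1, subunits of the nitric oxide receptor, had log2 ratios of 1.23 and 1.59. Among other members of the list, Rgs5 was at 4.71 CPM against 4.96 CPM and Abcc9 at 1.77 CPM against 15.6 CPM. Kcnj8 had 1 UMI, and Higd1b and Vtn none. The counts on this list depended on how the clusters were weighted. With each of the 6 other clusters weighted equally, 5 of 14 measured members were at least 2-fold higher and 5 at least 2-fold lower.

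Of 12 measured smooth muscle genes none was at least 2-fold higher and 4 were at least 2-fold lower, with a median log2 ratio of -0.67. Of all genes 2.98% were at least 2-fold lower. With the 6 other clusters weighted equally 10 of 13 were lower, and 409 genes in all were, in place of 275. Myh11, smooth muscle myosin, was at 2.36 CPM (0.642 to 6.03 CPM) against 44.8 CPM. About as much of it as in wAPC 4 was found in wAPC 2, at 3.09 CPM, while the differentiating wFAPLs held 2522 CPM. Without these 15 cells the rest stood at 23.4 CPM. Lmod1 was at 3.54 CPM against 50.0 CPM, Cnn1 at 28.9 CPM against 80.4 CPM and Mylk at 111 CPM against 298 CPM. Acta2, smooth muscle actin, was abundant in both groups, at 2610 CPM and 3640 CPM, a log2 ratio of -0.48 (-0.52 to -0.44).

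Adipogenic regulators were mixed. Of 14 measured genes 3 were at least 2-fold lower and 1 at least 2-fold higher, with a median log2 ratio of -0.17. Over all genes 2.98% were lower and 2.1% higher. Cebpd, an early inducer of adipogenesis, was at 36.5 CPM (28.0 to 46.8 CPM) against 156 CPM, and every other white cluster was higher, the nearest being the differentiating wFAPLs at 50.3 CPM (32.2 to 74.9 CPM). Cebpa was at 8.25 CPM against 27.5 CPM, and Fabp4, a lipid carrier and adipocyte gene, at 25.3 CPM against 69.6 CPM. The lowest Fabp4 belonged to wAPC 2, at 11.0 CPM. Pparg, the master regulator, was at 44.8 CPM against 52.8 CPM, a log2 ratio of -0.24 (-0.59 to 0.09). Ebf2, which marks precursors committed to brown and beige fat, was at 179 CPM against 81.9 CPM. It was not 2-fold higher among G1 cells, or in the 29 wAPC 4 cells given another label when held out (described further on). Of 8 measured genes that mark adult progenitor subtypes, 3 were at least 2-fold lower (2.98% of all genes were) and none higher. These were Gdf10, at 5.30 CPM against 38.9 CPM, Ly6a at 24.7 CPM against 92.2 CPM, and Sema3c at 5.89 CPM against 16.3 CPM. Dpp4 had no UMI, and Pi16 was at 3.54 CPM.

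Other genes with high ratios were on none or few of these lists. Bhlhe41, a repressor of the circadian clock, was at 61.3 CPM (50.1 to 74.3 CPM) against 5.53 CPM, a log2 ratio of 3.47 (3.13 to 3.79), with a UMI in 42 of 62 cells. The myeloid cells stood at 79.9 CPM. Of 10 measured clock genes it and Arntl were at least 2-fold higher (2.1% of all genes were) and Per1 at least 2-fold lower (2.98%). Bhlhe41 was measured through wAPC 4 alone. With the minimum set over all labelled cells together, 1 of 9 was higher and 1 lower. Aldh1a3, which makes retinoic acid, was at 84.3 CPM against 11.3 CPM, with wFAPLs next at 29.7 CPM. Iqgap2, a scaffold protein, was at 69.5 CPM against 9.52 CPM, and Gng11, a G protein subunit, at 222 CPM against 51.7 CPM. Nhsl2 and Prkg2 completed the 15 highest at 50 CPM or more, with log2 ratios of 2.08 and 1.97. Dcc, the netrin receptor, had the second highest ratio at 50 CPM or more, 66.6 CPM against 2.78 CPM, but only 9 of 62 cells held a UMI, the top cell held 40.7% of them and 2 cells over 50%. Among genes between 10 and 50 CPM, the 9 highest after Hey1 were 4833422C13Rik, Adamts16, Mmp9, Kcnq3, Vav3, Cdh6, Cmklr1, Arhgef26 and Ephb1, with log2 ratios from 4.04 down to 2.82. Of these 4833422C13Rik, an antisense transcript, was the most widespread, with a UMI in 37 cells, and Cmklr1, the chemerin receptor, had one in 18. Ephb1 had UMIs in 4 cells and Cdh6 in 7, and among G1 cells the log2 ratio of Cdh6 was -0.40. Like Hey1, all of these genes between 10 and 50 CPM reached 10 CPM through wAPC 4 alone.

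The lowest ratio at 50 CPM or more was that of Adm, the vasodilator adrenomedullin, which was at 2.36 CPM (0.642 to 6.03 CPM, 4 UMIs) against 59.2 CPM, a log2 ratio of -4.65 (-6.53 to -3.29). A UMI was found in 4 of 62 cells and in 926 of 1937 others, and the nearest cluster, wAPC 3, stood at 22.4 CPM. Ptx3, a pentraxin of innate immunity, was at 14.7 CPM against 158 CPM, a log2 ratio of -3.42 (-4.05 to -2.86). Here the differentiating wFAPLs came next, at 35.6 CPM (20.8 to 57.1 CPM). Adamts5, an aggrecanase, was at 20.6 CPM (14.4 to 28.7 CPM) against 166 CPM, with wAPC 3 next at 91.5 CPM. Cemip, a protein of hyaluronan breakdown, was at 11.2 CPM against 85.6 CPM, but 1 cell held 78.9% of its UMIs and wAPC 3 was equally low at 10.8 CPM. The growth factor genes Vegfd and Kitl were at 21.2 against 110.5 CPM and at 22.98 against 104 CPM. Arhgap20, Sncaip, Nav2 and Pcdh9 completed the 10 lowest, with log2 ratios of -3.09, -2.83, -2.38 and -2.18. Adm also answers to low oxygen. Of 13 measured hypoxia genes 3 were at least 2-fold lower (Adm, Bnip3 and Pdk1) and none higher, with a median of -0.42, but Vegfa was at 101 CPM against 87.9 CPM. For this list and those that follow, the shares over all genes were 2.1% higher and 2.98% lower. Of 13 cytokine and inflammatory genes 3 were at least 2-fold lower (Ptx3, Cxcl1 and Cxcl12) and 3 higher (Cx3cl1, Il6 and Tnfaip2), of which Cx3cl1 and Il6 were measured through wAPC 4 alone. Of 15 immediate early genes, which respond to handling of cells, Egr2 and Egr3, both measured through wAPC 4 alone, were higher and Atf3 lower. Of 12 p53 target genes Pmaip1 and Plk3, measured in the same way, were higher and none lower.

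**Figure D4:**
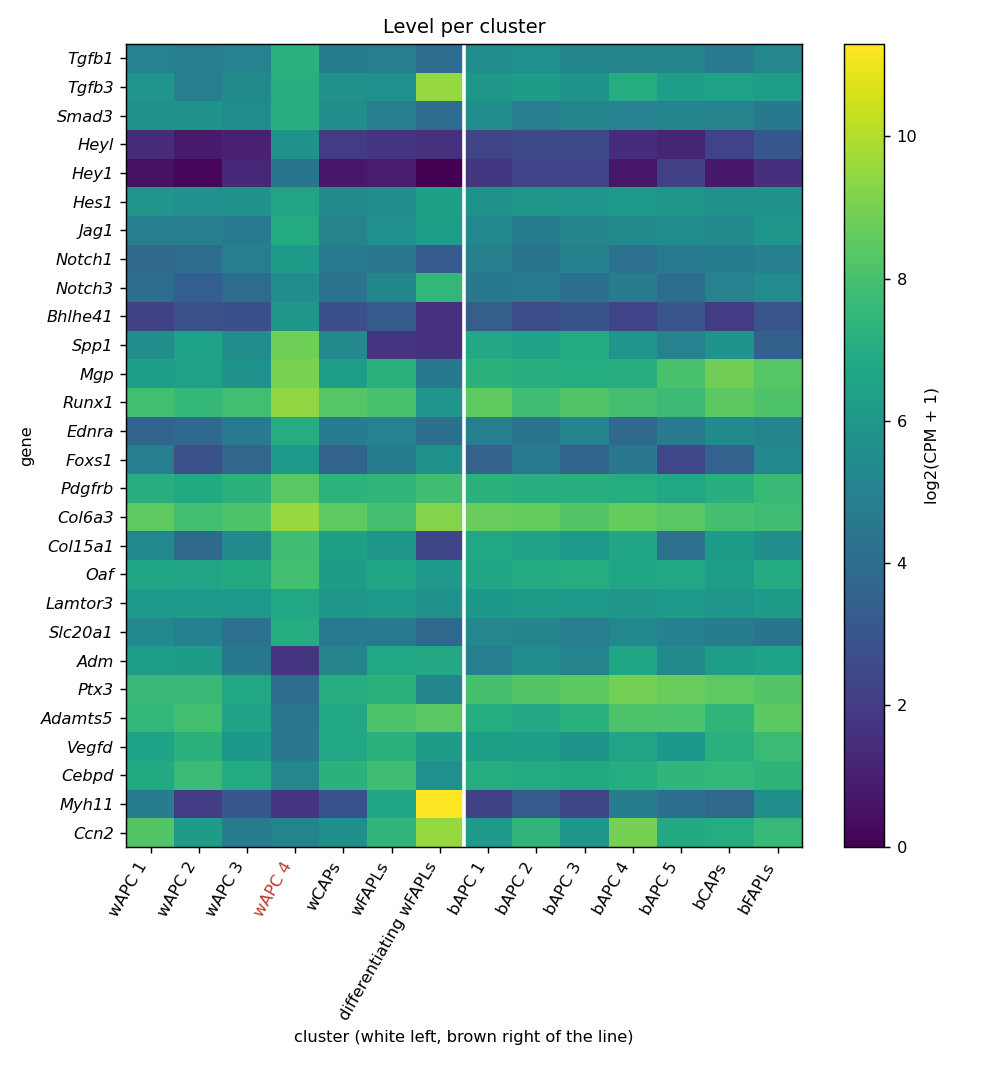
Level of 28 genes in the 7 white clusters (left of the white line) and the 7 brown clusters (right), as log2(CPM + 1) by colour. wAPC 4, in red, holds the highest white level of Tgfb1, Heyl, Hey1, Bhlhe41, Spp1 and Ednra and the lowest of Adm, Ptx3 and Adamts5, while Tgfb3, Notch3 and Myh11 peak in the differentiating wFAPLs.

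Over the 14 white and brown clusters, the genes at 10 CPM or more in wAPC 4 whose log2(CPM + 1) ran most like that of Tgfb1 were Lamtor3, Oaf, Hey1, Bhlhe41 and Slc20a1, with Pearson's r from 0.93 to 0.90. The clusters of a depot share a library. Without wAPC 4 the values of r fell to between 0.65 for Bhlhe41 and 0.80 for Oaf, so much of the likeness came from that cluster. Lamtor3, a scaffold of the MAPK and mTORC1 pathways, differed little in size, at 106 CPM against 66.1 CPM, and was the highest of the white clusters by a narrow but non-overlapping interval (91.1 to 122.7 CPM against 69.0 CPM in wAPC 1, interval 64.7 to 73.4 CPM).

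The 62 cells were not all given their own label by their neighbours. Each labelled cell was held out once, over 5 rounds, and given the label most common among its 15 nearest labelled neighbours. Of the wAPC 4 cells 33 (53.2%) were given wAPC 4 again, while 15 were given wCAPs, 7 wAPC 1, 5 wAPC 3 and 2 wAPC 2. That was the lowest share of the 7 white clusters, which otherwise ran from 81.2% to 95.4%. Of the 36 cells given this label, 33 carried it. The components on which neighbours were found were made with the held-out cells included. The part of cluster size in these shares was not tested. The largest cluster, the wCAPs, had the highest share, but the 15 differentiating wFAPLs had 86.7%. The 29 other wAPC 4 cells had a median of 25868 UMIs, close to the 26296 of the 33. Since this split was made from expression, the levels on its sides are given as a description. Tgfb1 was at 185 CPM in the 33 cells and 109 CPM in the 29, still above the 28.4 CPM of the rest. Heyl was at 73.95 CPM and 34.1 CPM, and Hey1 at 30.9 CPM and 7.59 CPM. Vav3 showed a wider gap, at 83.9 CPM against 10.1 CPM. Smad3, Hes1, Mgp and Runx1 were nearly even, with log2 ratios of the 33 over the 29 between -0.16 and 0.13. Adm and Ptx3 were as low in the 29 cells (2.53 and 16.4 CPM) as in the 33 (2.21 and 13.2 CPM).

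Cell cycle phases depended on the scoring. By module scores 61.3% of its cells were in G1 (interval 48.1 to 73.4%), 27.4% in S (16.9 to 40.2%) and 11.3% in G2/M (4.66 to 21.9%), against 64.4%, 16.2% and 19.4% of the others. The interval of the S share lay just above the 16.2% of the others, whose own interval was 14.6 to 17.9%, and those of G1 and G2/M held the shares of the others. Counting the UMIs of the S genes directly put 17.7% of wAPC 4 cells in S (9.20 to 29.5%). Among the 275 genes at least 2-fold lower, 14 were cell cycle genes of the scoring lists, and 27 of the 275 were higher rather than lower in wAPC 4 when only G1 cells were compared. Those included Top2a, Ccna2, Ccnb1, Cenpf and Nusap1, all of cell division, and none of the genes described above.

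To see whether the same genes went together in cells that had no part in the clustering of the white cells, brown precursors with UMIs of both Heyl and Hey1 were compared with all other brown precursors, a comparison chosen after the white values were known. No brown cluster came near the level of wAPC 4 in either gene. Heyl was highest in bFAPLs at 7.43 CPM and Hey1 in bAPC 3 at 3.88 CPM. Single cells did. Of 5963 filtered brown precursors 471 held a Heyl UMI, 326 a Hey1 UMI and 113 both. Hey1 was found in 24.0% of the cells with Heyl (interval 20.2 to 28.1%) and in 3.88% of those without. Thinned to 10000 UMIs per cell, these shares were 10.5% and 2.11%. The 113 cells (1.90%) were spread over all 7 brown clusters, with 51 in bAPC 1 and 30 in bAPC 2, and were deeper, at a median of 30399 UMIs against 26342. Tgfb1 was at 98.6 CPM in them against 35.7 CPM in the rest, a log2 ratio of 1.47 (1.31 to 1.62). Spp1 was at 246 CPM against 74.5 CPM, Mgp at 641 CPM against 222 CPM and Ednra at 82.8 CPM against 28.6 CPM. Jag1, Notch1 and Notch3 had log2 ratios of 1.13, 1.37 and 1.30. On the low side, Adm was at 15.5 CPM against 56.6 CPM and Ptx3 at 108 CPM against 318 CPM. Not all genes followed: Hes1 had a log2 ratio of 0.28 (0.10 to 0.46), Tgfb3, Smad3 and Tgfbr1 had log2 ratios between 0.42 and 0.62, Adamts16 and Ephb1 of 0.61 and 0.48, and Myh11 of 0.21 (-0.17 to 0.56).

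Counted over genes, without Heyl and Hey1, 192 genes were at least 2-fold higher in wAPC 4 and 142 of them reached 10 CPM in the brown comparison. Of these 41 (28.9%) were at least 2-fold higher in the brown Heyl and Hey1 cells, where 0.64% of all 9062 genes were, but a gene that reached 10 CPM through those cells alone had to differ. With the minimum set over all brown precursors together, 24 of 109 genes (22.0%) were at least 2-fold higher, beside 0.296% of all 8781. Of 239 measured genes that were at least 2-fold lower in wAPC 4, 30 (12.6%) were so here, beside 0.508% of all genes, but 71 had a ratio above 0. Thinned to 10000 UMIs per cell before the cells were chosen, 24 brown cells held both genes and Tgfb1 had a log2 ratio of 1.65 (1.05 to 2.18). By the minimum over all brown precursors together, 2.07% of all 8750 genes were then at least 2-fold higher and 9.30% lower. Of 108 genes higher in wAPC 4, 34 were at least 2-fold higher and 3 lower. Of 228 lower in wAPC 4, 64 were at least 2-fold lower and 6 higher. Hes1 was then at -0.50 (-1.57 to 0.38), Smad3 at -0.24 (-1.56 to 0.81) and Myh11, lower in wAPC 4, at 1.41 (0.35 to 2.30). At that depth Bhlhe41 rested on 2 UMIs, and its ratio of 0.58 had an interval from -2.48 to 2.44.

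The unlabelled white precursors lack a label only in the copy of the table used here. They are of the same library, and the study clustered them together with the labelled cells. Of 2333 such cells 25 held UMIs of both genes, at a median depth of 29923 UMIs against 26720 in the others. Their Tgfb1 was at 181 CPM against 31.5 CPM in the other unlabelled cells, their Spp1 at 463 CPM against 49.3 CPM and their Bhlhe41 at 99.0 CPM against 6.46 CPM. Adm was at 2.79 CPM against 58.2 CPM, and Hes1 at 44.6 CPM against 52.6 CPM, a log2 ratio of -0.24 (-0.79 to 0.26). Of all genes measured there 3.39% were at least 2-fold higher and 4.46% at least 2-fold lower. Of 158 measured genes at least 2-fold higher in wAPC 4, without Heyl and Hey1, 121 were so here. With the minimum set over all unlabelled white precursors together 74 of 105 were, beside 1.74% of all genes. Of 266 at least 2-fold lower in wAPC 4, 128 were so here and 6 were at least 2-fold higher. Thinned to 10000 UMIs per cell, only 8 cells held both genes. By the minimum over all these precursors, 8.64% of all genes were then at least 2-fold higher and 21.9% lower. Of 104 genes higher in wAPC 4, 65 were higher and 7 lower, and of 255 lower in wAPC 4, 158 were lower and 13 higher. By vote of their neighbours 14 of the 25 were given wAPC 4, a label that 39 unlabelled cells received, and 6 were given wCAPs.

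**Figure D5:**
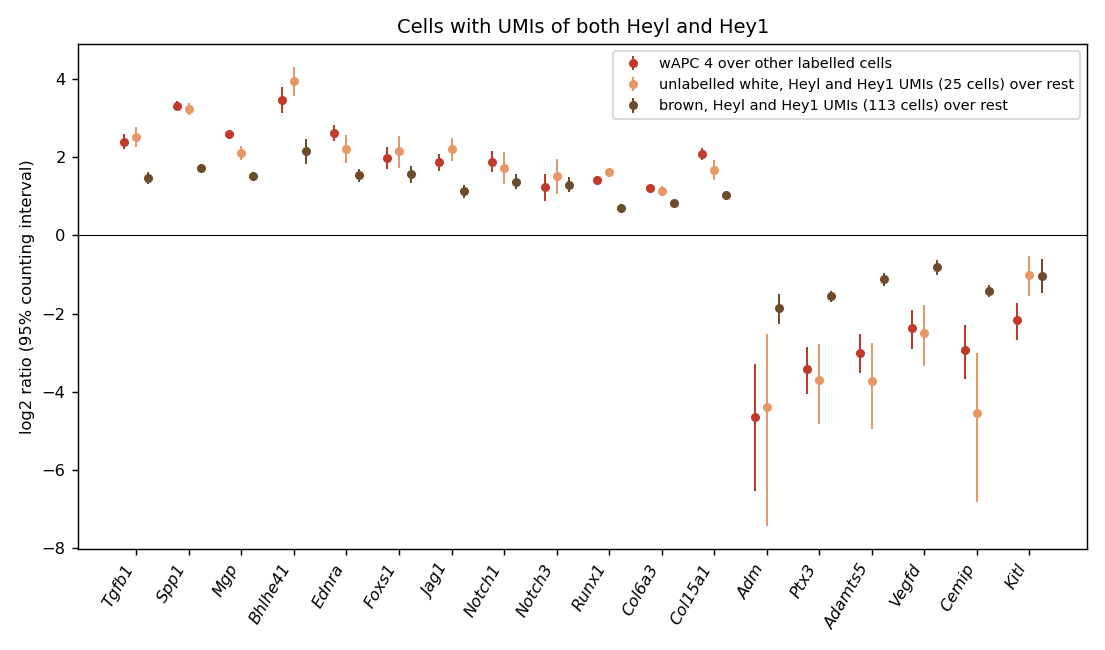
Log2 ratio of 18 genes with its 95% counting interval, for wAPC 4 over the other labelled white cells (red), and for cells with UMIs of both Heyl and Hey1 over the rest among unlabelled white (orange, 25 cells) and brown precursors (brown, 113 cells). Tgfb1 has log2 ratios of 2.40, 2.52 and 1.47 and Adm of -4.65, -4.38 and -1.87 in these comparisons.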

How the data were processed

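The deposited matrices hold raw UMI counts for 32285 genes, which the authors made with Cell Ranger 7.0.1 on mm10 (GRCm38) and did not normalize. The white library sums to 144451047 UMIs (median 26239 per cell). Cluster labels came from the study's source data, in a shortened copy with the first 1999 white and 1999 brown precursors. The study's filters were applied again (3900 to 7700 genes, 1.7 to 5% mitochondrial UMIs, 6000 to 60000 UMIs), which left 4407 white and 6137 brown cells, and all labelled cells passed. No doublet caller was used.

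Levels are in CPM, from UMIs added up over the cells of a group, with an exact 95% Poisson interval. Log2 ratios have a conditional exact binomial interval, and shares a Clopper-Pearson interval. Where no UMI was found, the limit given is 3 counts. Genes at 10 CPM or more in either group were counted past 2-fold. With 1 library per depot no test was run, and depot, culture and library cannot be told apart. The members, gene lists and rules were chosen with earlier results of these data known. The genes named are the 15 highest and 10 lowest ratios at 50 CPM or more, the 10 highest between 10 and 50 CPM in wAPC 4, the list members, Tgfb1 and the 5 genes most like it.

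Cell cycle phases came from Seurat 5.3.0 gene lists scored with scanpy 1.11.5. Labels were carried over by 15 nearest neighbours on 10 components of 2000 variable genes. Coordinates are from GENCODE M21 and promoters from RefSeq on GRCm38.p6. Simulated counts with 200 genes changed 4-fold were used to check the calculation of the intervals, which held the true ratio for 95.6% of 8842 genes. These counts were drawn as Poisson sums, as the intervals assume. They leave out the unevenness of UMIs over cells, so they do not show how the intervals hold for the real cells. Some genes of the lists are not reported here by name.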

Additional observations from a re-analysis of the deposited data

How the results depend on the processing

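The log2 ratio of Tgfb1 lay between 2.34 and 2.57 with equal weight for the 6 other clusters, thinning, G1 cells, carried-over labels, per-cell means, no differentiating wFAPLs and no top cell. It was 2.71 in the 33 wAPC 4 cells given their own label again and 1.94 in the 29 others, a split added after seeing the data. The number of genes at least 2-fold higher was 305 in those 33 cells, 70 with a 50 CPM minimum and 69 at 3-fold. The number at least 2-fold lower was 452 after thinning, 72 with a 50 CPM minimum and 100 at 3-fold. A stricter rule gives fewer genes by construction, and the cause of the other shifts was not tested. After thinning, 165 of the 194 higher and 208 of the 275 lower genes were called again, and in the 29 cells 107 of the 194, with 8 below 0. Of the highest, lowest and Tgfb1-like genes, Cdh6 reversed, from 3.00 to -0.40 among G1 cells. The cause was not tested. Prkg2, Oaf and Lamtor3 were the others of these not past 2-fold throughout. Among list members, Notch3, Tgfb3, Lrrc32, Col4a1, Col4a2, Col18a1, Mcam, Gucy1a1, Gucy1b1 and Il6 were no longer 2-fold higher with equal weights. Equal weight for the 6 clusters moved the medians of Notch receptors to 0.01 and of the 12 smooth muscle genes to -1.78, since the 15 differentiating wFAPLs then make up 1 of 6 equal parts of the comparison. With the minimum set over all labelled cells together, a choice added after seeing the data, 1 Notch target was measured (Hes1) in place of 3. The cell cycle shares of wAPC 4 stayed within their intervals. Those of the other labelled cells did not all, with 66.6% in G1 and 16.7% in G2/M by summed UMIs. No paired analysis was possible because each depot is 1 library. With 62 cells, 1 UMI equals 0.589 CPM, and a gene without a UMI may still be at up to 1.77 CPM.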
